A study of Mus musculus with 13 samples.

Results

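The Rab GTPases are the largest branch of the Ras-like small GTPases, and their messenger RNA levels in mouse natural killer (NK) cells are described here. Members were taken by gene symbol: every gene of the expression table named Rab or Rabl with a number, leaving out Rab27a. This gave 51 of the 11989 genes in the table, and 50 of them passed the filter on low values (Rab39 did not). NK cells, innate lymphocytes that kill infected and transformed cells, came from wild-type C57BL/6 mice. The 13 RNA sequencing libraries formed 5 groups. Naive cells with no treatment were unstimulated (3 libraries) or given anti-NK1.1 for 6 h (3 libraries). Cells treated for 72 h with the IL-15 condition labelled HD were unstimulated (2 libraries) or given anti-NK1.1 for 6 h (3 libraries). Cells treated for 72 h with the condition labelled LD were all given anti-NK1.1 for 6 h (2 libraries). The labels do not spell out LD and HD, give no age, and do not say whether replicates came from separate mice or cultures, so p-values measure the spread between these libraries, which may be technical. IL-15 is the cytokine that keeps NK cells alive and primes them, and anti-NK1.1 is an antibody that engages an activating receptor on their surface.

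A Rab protein is a switch. Bound to GTP it sits in a particular membrane through a lipid tail and recruits effectors (motors, tethers and fusion factors) that move or dock vesicles there. Guanine nucleotide exchange factors (GEFs) turn it on, GTPase-activating proteins (GAPs) turn it off, and GDP dissociation inhibitors (GDIs) carry the inactive form through the cytosol. In cytotoxic lymphocytes this traffic delivers lytic granules holding perforin and granzymes to the contact with the target cell, recycles surface receptors and exports newly made cytokines.

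Promoter windows of 300 bases are shown for the genes on which the main contrasts below turn and for which one was at hand. Each runs 250 bases upstream to 50 bases downstream of the annotated start, from RefSeq (GRCm38.p6). Rab39b showed the steepest rise in both responses to anti-NK1.1, Rab20 the difference of responses of the largest size among the called members, Rab3d the steepest called fall in naive cells, and Rab19 a fall called in HD cells. Capitals mark a 7-base AP-1 match (TGANTCA) in Rab39b and an E-box match (CACGTG) in Rab20.
Rab39b, chrX:75578182-75578481, minus strand: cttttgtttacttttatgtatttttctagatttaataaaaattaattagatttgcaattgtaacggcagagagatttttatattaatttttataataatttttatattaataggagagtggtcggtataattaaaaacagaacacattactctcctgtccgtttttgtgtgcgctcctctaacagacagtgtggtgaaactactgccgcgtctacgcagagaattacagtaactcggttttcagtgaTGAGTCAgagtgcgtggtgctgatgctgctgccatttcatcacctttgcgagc
Rab20, chr8:11478591-11478890, minus strand: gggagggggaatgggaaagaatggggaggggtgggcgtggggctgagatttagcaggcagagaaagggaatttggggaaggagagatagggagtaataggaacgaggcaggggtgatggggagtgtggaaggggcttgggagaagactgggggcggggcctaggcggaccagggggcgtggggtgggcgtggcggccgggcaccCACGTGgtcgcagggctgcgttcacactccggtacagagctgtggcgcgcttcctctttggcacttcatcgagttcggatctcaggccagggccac
Rab3d, chr9:21918134-21918433, minus strand: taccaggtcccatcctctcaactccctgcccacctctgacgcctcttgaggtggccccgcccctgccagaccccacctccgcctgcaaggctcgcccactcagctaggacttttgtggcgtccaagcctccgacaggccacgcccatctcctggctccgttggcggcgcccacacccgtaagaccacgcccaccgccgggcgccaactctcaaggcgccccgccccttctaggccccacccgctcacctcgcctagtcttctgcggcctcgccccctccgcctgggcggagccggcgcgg
Rab19, chr6:39381103-39381402, plus strand: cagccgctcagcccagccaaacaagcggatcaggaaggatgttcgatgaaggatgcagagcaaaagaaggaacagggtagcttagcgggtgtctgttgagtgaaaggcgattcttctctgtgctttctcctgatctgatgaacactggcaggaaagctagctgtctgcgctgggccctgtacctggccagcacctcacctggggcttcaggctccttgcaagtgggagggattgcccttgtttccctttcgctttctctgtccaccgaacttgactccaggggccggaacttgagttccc
The Rab39b window is rich in A and T (35.7% G or C), and the Rab3d window is 71.0% G or C. Of the 51 genes, 43 had a window, 54 windows in all. The AP-1 letters lay in 3 of the 54 (5.56%), those of Rab15, Rab34 and Rab39b, against 7.81% of all 32851 promoter windows, searched on both strands. The E-box letters lay in 5 (9.26%), those of Rab20, Rab21, Rab23, Rab24 and Rab5a, against 7.15% of all. The CRE letters (TGACGTCA) lay in the Rab5a window alone (1.79% of all windows), and the NF-kB letters searched lay in none (0.155% of all). A match of letters is not evidence of binding.

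The table holds log2 values of quantile-normalized counts. Levels below are CPM, these values taken back to the linear scale and scaled to each library's total. Changes are log2 fold changes with their standard error from 1 limma model over all 13 libraries, called at a Benjamini-Hochberg adjusted p under 0.05 over 11543 genes. The median gene had between 112 and 463 reads per library, and between 155 and 809 genes per library had none. Reads were recovered from the order of the distinct values in each library. Reads without molecular identifiers are not independent molecules, so floors cover counting error only. All 9 NK markers were in the table, with summed levels of 11320 to 13750 CPM in naive and 10930 to 10980 CPM in HD unstimulated libraries. All but Prf1 had a lower mean in HD than in naive unstimulated cells. From naive to HD, Ncr1 stood at 540 and 170 CPM, Nkg7 at 2880 and 1160 CPM and Prf1 at 764 and 2600 CPM. The NK marker sums thus do not measure NK cell content. After anti-NK1.1 the 9 markers summed to 4328 to 5035 CPM in naive, 3603 to 3702 CPM in LD and 4455 to 6154 CPM in HD libraries. In the table's header each library carries the prefix MC_1 or MC_2, which does not itself say what it stands for. The prefixes are read here as 2 library pools. One held the naive libraries with LD replicate 3, and the other the HD libraries with LD replicate 1. Each response to anti-NK1.1 was therefore measured within 1 pool, whereas HD against naive runs across pools, and the pool can be told apart there only through the pair of LD libraries. Values given below as within the pool or within 1 pool rest on 1 LD library, whose spread is assumed to be that of the other groups.

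Together the 51 genes gave 3124 ± 52.1 CPM in naive unstimulated cells (SD, n = 3) and 3139 ± 124 CPM after anti-NK1.1 (n = 3). The sum was 2712 ± 71.2 CPM in LD anti-NK1.1 cells (n = 2), 2899 ± 146 CPM in HD unstimulated cells (n = 2) and 2714 ± 48.4 CPM in HD anti-NK1.1 cells (n = 3). Over all 13 libraries the sum ran from 2658 to 3282 CPM. Per kilobase of exon, the highest levels in naive unstimulated cells were those of Rab10 (97.7 ± 17.5 CPM per kb, n = 3), a Rab of traffic to the plasma membrane, Rab2a (95.2 ± 14.1), a Golgi Rab, and Rab6a (89.3 ± 15.9), a Rab of transport within and out of the Golgi. Those 3 overlapped between libraries and so have no order among them. Rab5c of early endosomes came next (60.0 ± 8.72), then Rab7 of late endosomes (52.4 ± 7.57) and Rab8a (45.1 ± 5.20), again with overlapping libraries. Rab39b and Rab15 were the lowest, with no read in any of the 3 libraries. Rab2a ranked first in both HD groups, at 134 ± 15.4 CPM per kb unstimulated (n = 2) and 96.3 ± 7.41 after anti-NK1.1 (n = 3), where its libraries overlapped those of Rab10. Rab10 ranked first in naive and LD anti-NK1.1 cells, with no overlap with the next gene.

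**Figure D1:**
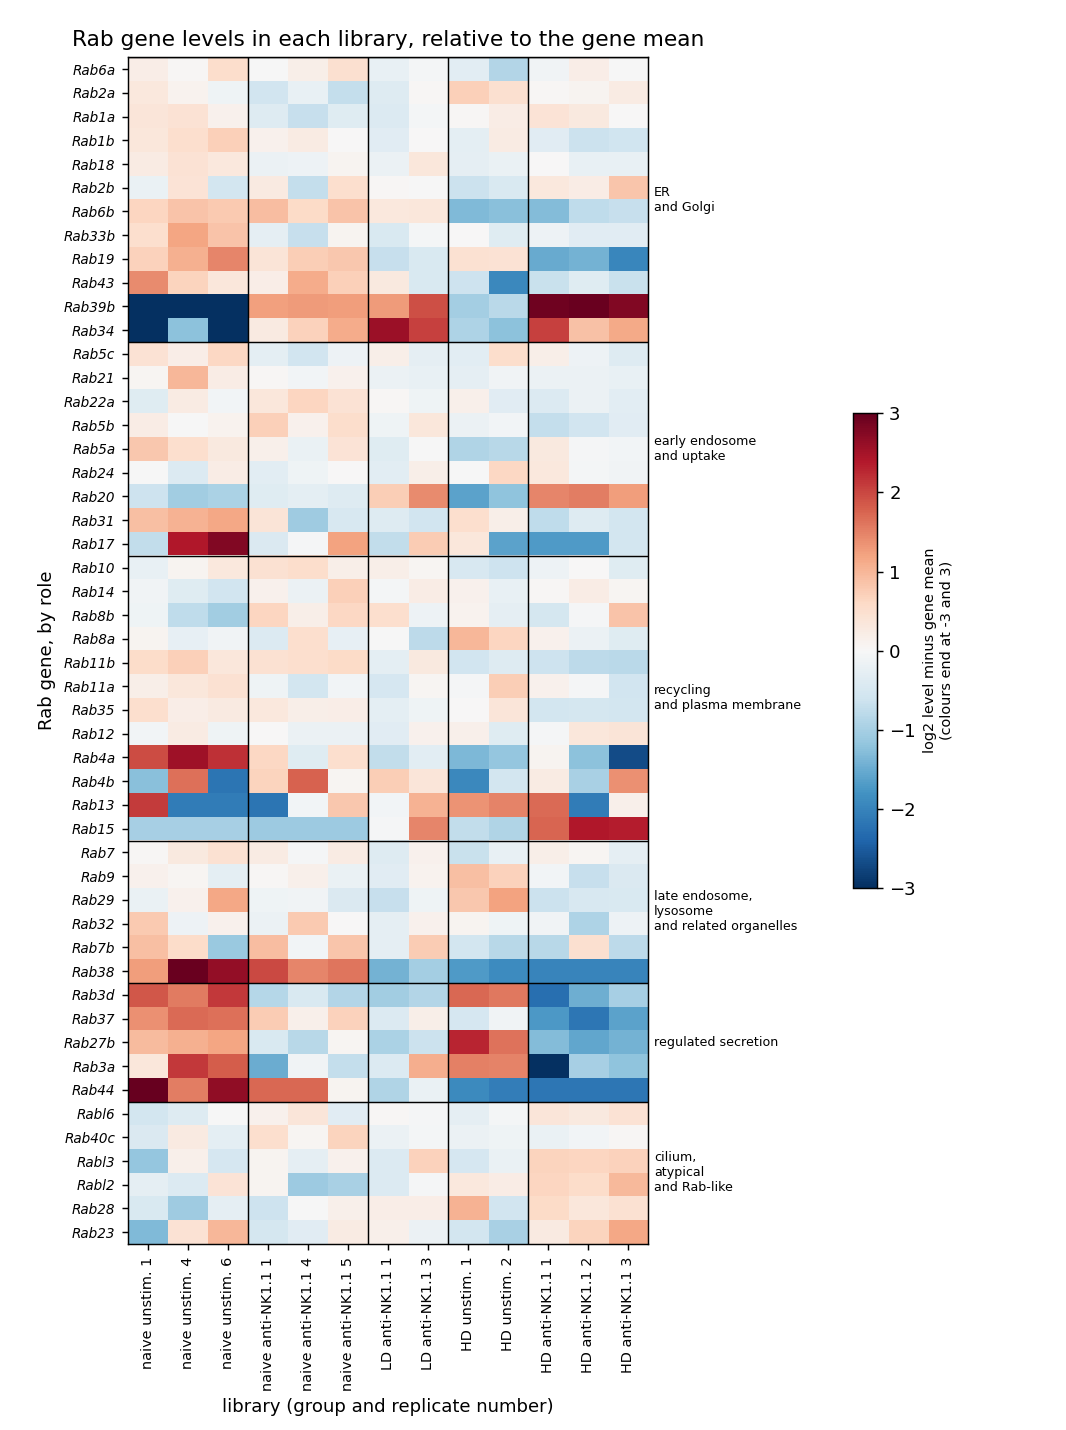
Levels of the 50 tested Rab genes in the 13 libraries, 1 row per gene grouped by role and 1 column per library. Colour is the log2 level minus the gene's mean over the libraries, with colours ending at -3 and 3. The regulated secretion rows (Rab3d, Rab27b) are high in unstimulated columns of both cell kinds, and Rab39b is highest in HD anti-NK1.1 columns.

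In naive cells, anti-NK1.1 moved 13 of the 50 tested Rab genes (26%), 3 higher and 10 lower. Of all genes tested, 29.2% were called (14.5% higher, 14.7% lower), so the share of Rab genes lies near the background. The median Rab change was -0.11 on the log2 scale, against 0.01 for all genes. Higher were Rab39b, Rab34 and Rab8b; lower were Rab3d, Rab3a, Rab4a, Rab27b, Rab31, Rab33b, Rab37, Rab1a, Rab5c and Rab2a. When each compared library was left out in turn, 8 of the 13 were called every time. The others reached an adjusted p of 0.107 (Rab5c) and 0.0541 (Rab4a) without naive anti-NK1.1 replicate 4, 0.113 (Rab3a) without naive unstimulated replicate 4, 0.0737 (Rab8b) without naive unstimulated replicate 6 and 0.118 (Rab2a) without naive anti-NK1.1 replicate 5.

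In HD cells, anti-NK1.1 moved 15 of the 50 (30%), 6 higher and 9 lower, where 33.1% of all genes were called (15.9% higher, 17.2% lower). Higher were Rab39b, Rab15, Rab20, Rab34, Rab2b and Rab5a; lower were Rab27b, Rab3a, Rab3d, Rab19, Rab29, Rab37, Rab9, Rab8a and Rab35. The median Rab change was -0.02, against -0.01 for all genes. With each compared library left out, 8 of the 15 were called every time. The adjusted p rose to 0.0899 (Rab34), 0.0705 (Rab15), 0.0506 (Rab29) and 0.120 (Rab35) without HD unstimulated replicate 2, and to 0.152 (Rab8a), 0.0611 (Rab5a) and 0.176 (Rab2b) without HD unstimulated replicate 1.

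Between unstimulated HD and naive cells, 4 Rab genes were higher in HD and 12 lower (32%), where 33.9% of all genes were called (16.6% higher, 17.3% lower). After anti-NK1.1, 6 were higher in HD and 15 lower (42%), where 43.5% of all genes were called (21.1% higher, 22.4% lower). The Rab medians were -0.26 and -0.20, against 0.02 for all genes in both. These are the comparisons that run across the library pools. With the pool as a term, 2 of the 16 calls remained in unstimulated cells (Rab39b and Rab6b) and 5 of the 21 after anti-NK1.1 (Rab37, Rab19, Rab39b, Rab20 and Rab6b). LD differed from naive anti-NK1.1 cells in 3 Rab genes (6%, 1 higher and 2 lower), where 13.6% of all genes were called (6.57% higher, 7% lower), and HD from LD anti-NK1.1 cells in 5 (10%, 1 higher and 4 lower), where 8.6% were called (3.27% higher, 5.33% lower). In all, 34 of the 50 were called in at least 1 of these 6 comparisons and 16 in none. The same count was not made over all genes tested, so these counts show nothing particular to Rab genes.

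Most Rab genes of regulated secretion fell after anti-NK1.1 in both naive and HD cells. The 5 members of this role group in the table are Rab3a and Rab3d, which act in calcium-triggered exocytosis, Rab27b, which docks secretory granules, Rab37, found on secretory granules of mast cells, and Rab44, a large atypical Rab of mast cell degranulation. Their summed level was 196.6 ± 20.4 CPM in naive unstimulated cells (n = 3) and 62.1 ± 7.27 CPM after anti-NK1.1 (n = 3). It was 170.5 ± 25.4 CPM in HD unstimulated cells (n = 2) and 21.8 ± 4.01 CPM after anti-NK1.1 (n = 3), and 45.0 ± 9.31 CPM in LD anti-NK1.1 cells (n = 2). Of the 5, 4 fell in naive and 4 in HD cells, all but Rab44 in both, where 14.7% and 17.2% of all genes tested fell. The medians of the 5 changes were -1.51 and -3.22 on the log2 scale.

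Rab3d lies on chromosome 9, minus strand (mm10, 21907491 to 21918192). Its levels were 87.0, 70.4 and 105 CPM in the naive unstimulated libraries and 13.1, 17.4 and 13.1 CPM after anti-NK1.1. They were 79.0 and 71.9 CPM in HD unstimulated cells, 4.91, 8.69 and 12.1 CPM in HD anti-NK1.1 cells, and 11.7 and 13.1 CPM in LD anti-NK1.1 cells. Every unstimulated library thus stood above every stimulated one. Rab3d fell by 2.58 ± 0.29 in naive cells (adjusted p = 1.68e-05, limma) and by 3.22 ± 0.32 in HD cells (adjusted p = 5.32e-06), and the difference of the responses, -0.64 ± 0.43, was not called (adjusted p = 0.346). Unstimulated HD and naive cells overlapped (-0.20 ± 0.32, adjusted p = 0.673). After anti-NK1.1 HD cells were lower by -0.84 ± 0.29 (adjusted p = 0.0284), a call lost without HD anti-NK1.1 replicate 1 (adjusted p = 0.148).

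Rab27b is the close paralog of Rab27a, which the rule left out. Its levels were 36.4, 39.3 and 42.6 CPM in naive unstimulated cells, 13.6, 10.5 and 19.4 CPM after anti-NK1.1, and 9.71 and 11.9 CPM in LD anti-NK1.1 cells. They were 91.8 and 58.0 CPM in HD unstimulated cells and 7.62, 6.31 and 7.001 CPM after anti-NK1.1. HD cells thus held the highest levels before anti-NK1.1 and the lowest after it, with no overlap. Rab27b fell by 1.48 ± 0.25 in naive cells (adjusted p = 6.71e-04) and by 3.38 ± 0.28 in HD cells (adjusted p = 1.18e-06). The fall was steeper in HD cells (difference -1.89 ± 0.38, adjusted p = 0.00425), called in all 11 fits with 1 library left out. The excess of HD over naive before stimulation, 0.89 ± 0.28 (adjusted p = 0.0264), was not called without HD unstimulated replicate 1 (adjusted p = 0.277). After stimulation HD was lower than naive (-1.01 ± 0.25, adjusted p = 0.00570), a call lost with the pool as a term (-0.71, adjusted p = 0.405).

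Rab37 on chromosome 11 had another order. Its levels were 55.2, 69.5 and 67.0 CPM in naive unstimulated cells and 36.6, 23.98 and 34.4 CPM after anti-NK1.1. They were 15.03 and 20.03 CPM in HD unstimulated cells, 6.38, 4.72 and 7.001 CPM in HD anti-NK1.1 cells, and 16.2 and 24.3 CPM in LD anti-NK1.1 cells. Rab37 was thus low in HD cells before and after anti-NK1.1, and LD libraries lay between, with 1 overlapping the naive range. It fell by 1.03 ± 0.25 in naive (adjusted p = 0.00712) and 1.53 ± 0.28 in HD cells (adjusted p = 8.03e-04). HD against naive gave -1.87 ± 0.28 unstimulated (adjusted p = 1.58e-04) and -2.37 ± 0.25 after anti-NK1.1 (adjusted p = 5.60e-06). HD against LD gave -1.72 ± 0.28 (adjusted p = 0.00136). Within the pool that holds HD and LD replicate 1, where LD is 1 library, it was -1.43. With the pool as a term the contrast with naive after anti-NK1.1 was -1.79 (adjusted p = 0.0351).

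Rab3a, the synaptic vesicle Rab, was scarce. Its levels were 1.12, 4.07 and 3.29 CPM in naive unstimulated cells, 0.262, 0.810 and 0.501 CPM after anti-NK1.1, 0.635 and 1.96 CPM in LD anti-NK1.1 cells and 2.63 and 2.58 CPM in HD unstimulated cells. In HD anti-NK1.1 cells 1 library had no read, and the other two had 0.402 and 0.338 CPM, 4 reads each. Both falls, -2.20 ± 0.71 in naive cells (adjusted p = 0.0316) and -3.37 ± 0.80 in HD cells (adjusted p = 0.00488), thus rest on few reads.

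Rab44 and Rab38 were found mainly in naive cells. Rab38 acts with Rab32 in making lysosome-related organelles such as melanosomes. Rab44 had 5.64, 1.06 and 2.40 CPM in naive unstimulated cells, 1.22, 1.22 and 0.341 CPM after anti-NK1.1, and 0.134 and 0.268 CPM in LD anti-NK1.1 cells. Rab38 had 0.746, 2.60 and 2.06 CPM, then 1.28, 0.874 and 0.964 CPM, then 0.0524 and 0.0932 CPM in the same groups. Neither had a read in any of the 5 HD libraries. Both passed the filter on low values only through naive libraries, so p-values against naive cells are no independent support for high levels there. Against a floor of 3 reads per library, Rab44 was at least 6.64-fold lower in HD than in naive unstimulated cells (adjusted p = 4.03e-04) and at least 2.83-fold lower after anti-NK1.1 (adjusted p = 0.00169). Rab38 was at least 3.94-fold (adjusted p = 4.46e-04) and at least 3.18-fold lower (adjusted p = 3.42e-04). With the pool as a term none of those 4 calls remained, with adjusted p from 0.102 to 0.265. Rab38 was also lower in LD than in naive anti-NK1.1 cells (-2.91 ± 0.69, adjusted p = 0.0140), a call lost without either LD library (adjusted p = 0.0917 within 1 pool).

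Markers of other cells also varied between the groups, in part in other directions than these genes. The 4 basophil and mast cell markers, all in the table, summed to 42.2 to 91.1 CPM in naive unstimulated libraries, 11 to 16.02 CPM in naive anti-NK1.1, 32.2 to 45.9 CPM in LD, 11.7 to 15.1 CPM in HD unstimulated and 9.01 to 21.5 CPM in HD anti-NK1.1 libraries. This sum was higher in LD than in naive anti-NK1.1 libraries, and the macrophage, monocyte and dendritic cell sum given below was lower. Rab44 and Rab38 were lower in LD. In group means of naive unstimulated, HD unstimulated and HD anti-NK1.1 cells, Mcpt8 stood at 34.4, 12.5 and 12.9 CPM and Cpa3 at 16, 0.862 and 0.456 CPM. In naive anti-NK1.1 and LD anti-NK1.1 cells, Mcpt8 stood at 10.5 and 23.9 CPM and Cpa3 at 1.75 and 11.6 CPM. The receptor chains Fcer1a and Ms4a2 stood at 5.34 and 5.23 CPM in naive unstimulated cells, at 0.0233 CPM each in HD unstimulated and at 0.0117 CPM each in HD anti-NK1.1 cells. The 9 markers of macrophages, monocytes and dendritic cells summed to 651.9 to 765.6 CPM in naive unstimulated, 612.2 to 729.9 CPM in naive anti-NK1.1, 321.3 to 427.9 CPM in LD, 165.1 to 235.0 CPM in HD unstimulated and 89.9 to 122.2 CPM in HD anti-NK1.1 libraries. In bulk RNA, fewer cells of a type and less RNA per cell cannot be told apart. The part of these markers in the levels of Rab44, Rab38, Rab37, Rab27b and Rab3d was not tested.

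**Figure D2:**
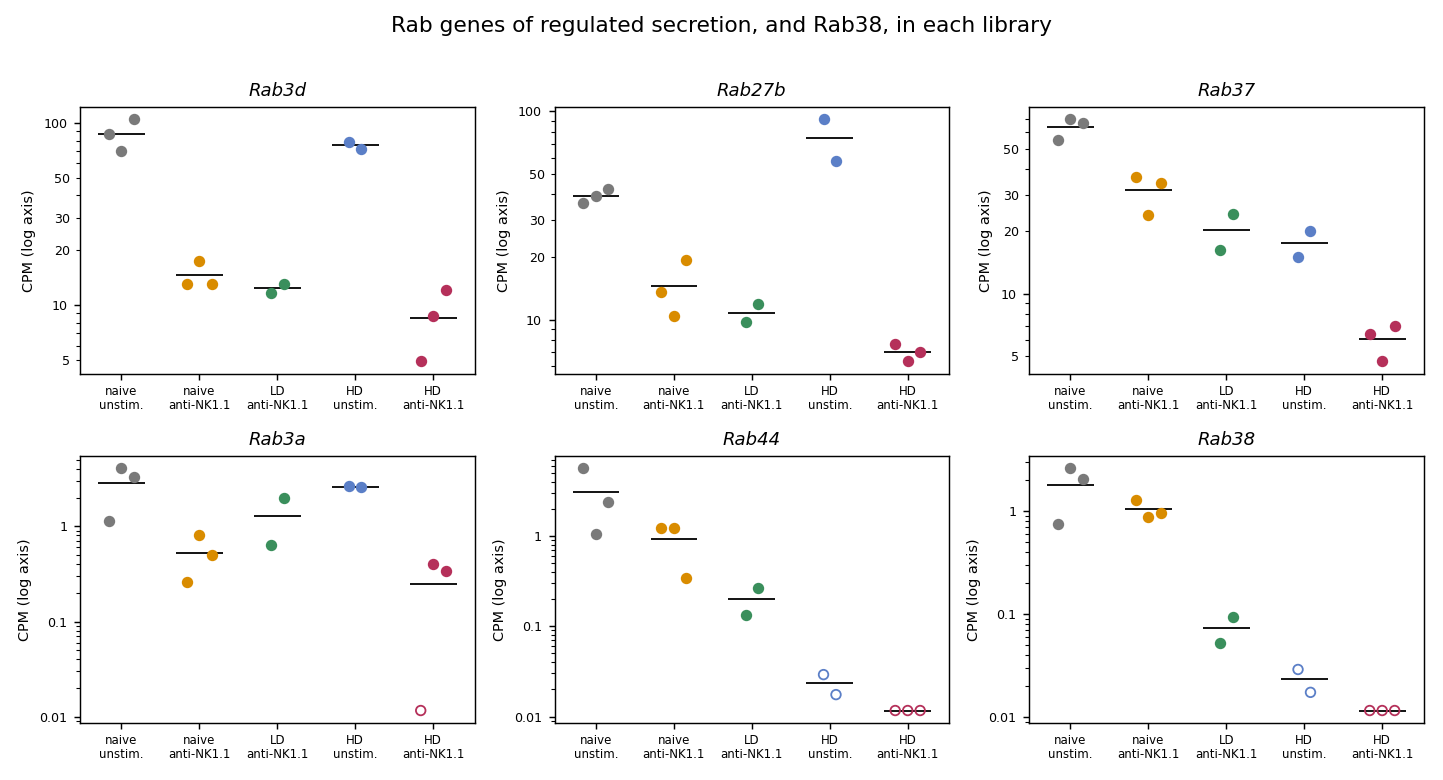
CPM (log axis) of 6 Rab genes of secretion and lysosome-related organelles in each library, by group, with a bar at the group mean and open circles for libraries without a read. Rab3d is above 70 CPM in all 5 unstimulated libraries and below 18 CPM in all 8 stimulated ones, and Rab44 and Rab38 have no read in HD libraries.

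In the endoplasmic reticulum (ER) and Golgi group, 13 genes were in the table and 12 tested. The group's sum was 823.5 to 881.3 CPM in naive unstimulated libraries and between 641.9 and 716.8 CPM in the mean of the other 4 groups. After anti-NK1.1, 2 rose and 3 fell in naive cells, and 3 rose and 1 fell in HD cells (41.7% and 33.3% of the 12, against 29.2% and 33.1% of all genes). The steep risers were genes at or near 0 before stimulation.

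Rab39b, a Rab best known from neurons, where human mutations cause intellectual disability, lies on chromosome X, minus strand (mm10, 75572046 to 75578231). It had no read in the 3 naive unstimulated libraries, which allows up to 0.227, 0.320 and 0.262 CPM. After anti-NK1.1 it had 4.93, 5.13 and 4.999 CPM. In HD cells it had 0.979 and 1.14 CPM before and 16.2, 16.7 and 14.6 CPM after anti-NK1.1, and LD anti-NK1.1 cells had 5.07 and 8.11 CPM. Each stimulated library thus stood above each unstimulated one, and the HD libraries above the naive ones in the same state. Rab39b was at least 18.6-fold higher after anti-NK1.1 in naive cells (adjusted p = 4.73e-08), and it rose by 3.81 ± 0.36 in HD cells (adjusted p = 3.46e-06). HD exceeded naive at least 3.93-fold before (adjusted p = 3.10e-06) and by 1.64 ± 0.32 after stimulation (adjusted p = 0.00107). Both calls remained with the pool as a term (adjusted p = 0.00139 and 0.0374). HD exceeded LD by 1.29 ± 0.36 (adjusted p = 0.0394), a call lost with any single library left out (adjusted p up to 0.270, without LD replicate 1) and not reached within the pool (1.63, adjusted p = 0.0743). Of its exon bases, 18.6% overlap an antisense gene that is not in the table.

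Rab34, a Golgi Rab that positions lysosomes and takes part in cilium formation, had 4 reads in 1 naive unstimulated library (0.402 CPM) and none in the other two. It had 1.28, 1.73 and 2.37 CPM after anti-NK1.1, and 6.58 and 4.62 CPM in LD anti-NK1.1 cells. In HD cells it had 0.513 and 0.402 CPM, 3 reads each, before and 4.60, 1.98 and 2.41 CPM after anti-NK1.1. The stimulated libraries again all lay above the unstimulated ones. The rise was 3.56 ± 0.62 in naive cells (adjusted p = 7.31e-04) and 2.44 ± 0.69 in HD cells (adjusted p = 0.0143). Rab34 passed the filter on low values only through anti-NK1.1 libraries, so these p-values are no independent support for high levels there.

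Rab19, a less studied Golgi-associated Rab on chromosome 6, went the other way. Its levels were 15.3, 19.99 and 26.5 CPM in naive unstimulated cells and 12.5, 15.9 and 16.7 CPM after anti-NK1.1, which overlap. They were 13.1 and 12.8 CPM in HD unstimulated cells, 3.32, 3.51 and 2.41 CPM in HD anti-NK1.1 cells, and 5.90 and 6.93 CPM in LD anti-NK1.1 cells. The 3 stimulated groups were thus in the order naive, LD, HD, with no overlap. Rab19 fell by 2.06 ± 0.29 in HD cells (adjusted p = 1.13e-04), while the naive change was -0.43 ± 0.26 (adjusted p = 0.242), and the responses differed by -1.63 ± 0.39 (adjusted p = 0.0123), called with every library left out. HD against naive after anti-NK1.1 was -2.26 ± 0.26 (adjusted p = 1.33e-05), and -2.04 with the pool as a term (adjusted p = 0.0326). LD against naive was -1.21 ± 0.29 (adjusted p = 0.0153) and HD against LD -1.05 ± 0.29 (adjusted p = 0.0390). Within 1 pool these were -1.10 (adjusted p = 0.108) and -0.94 (adjusted p = 0.228), neither called.

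**Figure D3:**
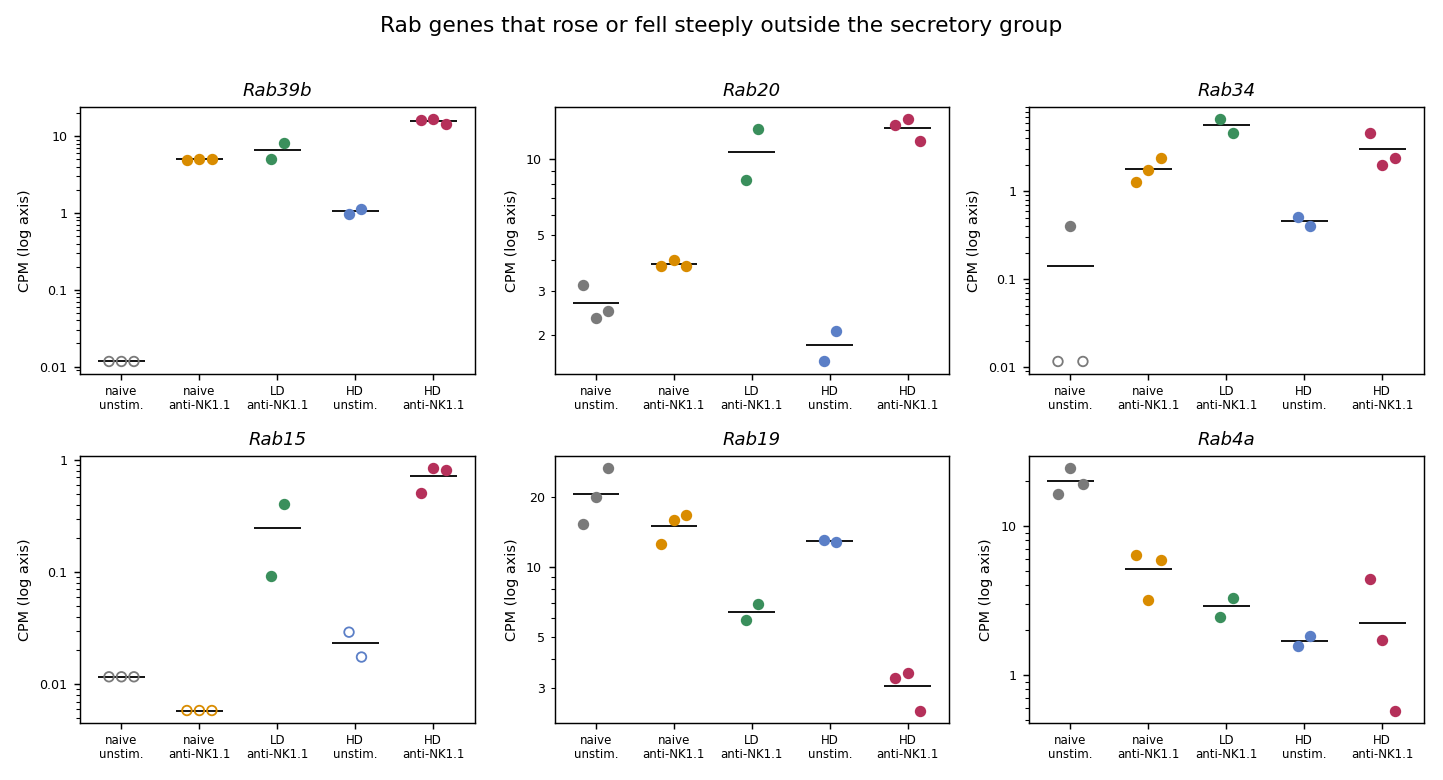
CPM (log axis) of 6 Rab genes outside the secretion group in each library, with a bar at the group mean and open circles for libraries without a read. Rab39b, Rab34 and Rab15 start at or near 0, Rab20 is highest in LD and HD anti-NK1.1 cells, and Rab19 is lowest there.

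Several paralog pairs of ER and Golgi transport were called in different comparisons. Rab1a and Rab1b both drive vesicles from the ER to the Golgi. Rab1a had 94.8, 101 and 80.2 CPM in naive unstimulated cells, 56.4, 45.4 and 57.8 CPM after anti-NK1.1, 55.8 and 71.3 CPM in LD cells, 76.3 and 85.8 CPM in HD unstimulated cells and 98.03, 91.1 and 74.2 CPM in HD anti-NK1.1 cells. It fell in naive cells (-0.79 ± 0.19, adjusted p = 0.00670), and the HD libraries overlapped (0.11 ± 0.21, adjusted p = 0.740). The responses differed by 0.90 ± 0.29 (adjusted p = 0.0473), a call lost in 9 of the 11 fits with 1 library left out, at most without HD unstimulated replicate 1 (adjusted p = 0.148). Rab1b had 69.0, 78.0 and 89.6 CPM in naive unstimulated cells, 60.3, 65.0 and 55.6 CPM in naive anti-NK1.1 cells and 43.7, 35.3 and 36.4 CPM in HD anti-NK1.1 cells. After anti-NK1.1, HD cells were thus higher than naive cells in Rab1a (0.72 ± 0.19, adjusted p = 0.00733) and lower in Rab1b (-0.65 ± 0.20, adjusted p = 0.0171, or 0.0617 without HD anti-NK1.1 replicate 2). With the pool as a term neither was called, at 1.07 for Rab1a (adjusted p = 0.085) and -0.29 for Rab1b (adjusted p = 0.681). The longest stretch of sequence the 2 genes' transcripts share is 38 bases, where the counting could assign reads to either.

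Rab2a and Rab2b serve Golgi structure and autophagy. Rab2a had 233, 204 and 173 CPM in naive unstimulated cells and 127, 160 and 115 CPM after anti-NK1.1, a fall of 0.60 ± 0.20 (adjusted p = 0.0320). Its HD levels, 310 and 263 CPM before and 194, 199 and 223 CPM after anti-NK1.1, gave no call for the response (-0.48 ± 0.22, adjusted p = 0.108), but HD exceeded naive after stimulation (0.63 ± 0.20, adjusted p = 0.0184, or 0.0763 without naive anti-NK1.1 replicate 5). Rab2b rose in HD cells, from 11.2 and 12.7 CPM to 21.8, 20.6 and 31.6 CPM (1.02 ± 0.36, adjusted p = 0.0429), and the call was lost with each library left out. Of its exon bases, 59.3% overlap a gene on the other strand that is not in the table.

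Rab6b, the form of Rab6 enriched in neurons, separated HD from the other cells. It had 21.9, 25.3 and 23.9 CPM in naive unstimulated, 26.7, 20.7 and 25.4 CPM in naive anti-NK1.1 and 17.5 and 17.6 CPM in LD cells, against 5.56 and 5.83 CPM in HD unstimulated and 5.64, 8.22 and 8.63 CPM in HD anti-NK1.1 cells. Anti-NK1.1 gave no call in either cell kind (0.03 ± 0.22 and 0.37 ± 0.25). HD against naive was -2.04 ± 0.25 unstimulated (adjusted p = 2.75e-05) and -1.70 ± 0.22 after anti-NK1.1 (adjusted p = 4.17e-05), and with the pool as a term it was -2.03 (adjusted p = 0.0194) and -1.69 (adjusted p = 0.0365). HD against LD was -1.24 ± 0.25 (adjusted p = 0.00631), and within the pool it was -1.24 as well (adjusted p = 0.0529, not called). Rab6a, the widespread form, had 316, 284 and 399 CPM in naive unstimulated and 219 and 151 CPM in HD unstimulated cells (-0.86 ± 0.23, adjusted p = 0.0110, or 0.139 without HD unstimulated replicate 2), and no comparison of its anti-NK1.1 groups was called. Of the exon bases of Rab6a, 19.0% overlap Mrpl48 on the other strand.

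Rab33b, which binds the autophagy factor Atg16L1, had 16.7, 26.9 and 21.6 CPM in naive unstimulated cells and 7.35 to 12.6 CPM in the other 10 libraries. It fell by 1.13 ± 0.27 in naive cells (adjusted p = 0.00585), and in HD cells the change was -0.11 ± 0.30. Rab43, another Golgi Rab, had 7.52, 4.47 and 3.51 CPM in naive unstimulated and 1.77 and 0.670 CPM in HD unstimulated cells (-2.09 ± 0.48, adjusted p = 0.00396, or 0.0689 without HD unstimulated replicate 2). Since 75.4% of its exon bases lie in a protein-coding read-through gene on the same strand, its reads are uncertain. Rab18, a Rab of the ER and lipid droplets, was called in no comparison. Rab39, the untested sister of Rab39b, had no read in 5 of the 13 libraries and at most 13 reads (0.964 CPM) in any.

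In the early endosome and uptake group, all 9 genes were tested, and 2 fell in naive cells and 2 rose in HD cells (22.2% each, against 29.2% and 33.1% of all genes). In the opposite directions limma called none, with 1 gene each at an unadjusted p under 0.05 (Rab22a higher in naive, Rab31 lower in HD). Rab20, which takes part in phagosome maturation in macrophages, led the rises. It lies on chromosome 8, minus strand (mm10, 11453518 to 11478710). Its levels were 3.18, 2.35 and 2.50 CPM in naive unstimulated and 3.77, 3.99 and 3.76 CPM in naive anti-NK1.1 cells. They were 1.57 and 2.09 CPM in HD unstimulated, 13.7, 14.5 and 11.9 CPM in HD anti-NK1.1 and 8.28 and 13.2 CPM in LD anti-NK1.1 cells. The HD unstimulated libraries thus stood lowest, and the LD and HD anti-NK1.1 libraries above all others. Rab20 rose by 2.82 ± 0.31 in HD cells (adjusted p = 1.41e-05), against 0.52 ± 0.28 in naive cells (adjusted p = 0.183). The responses differed by 2.30 ± 0.42 (adjusted p = 0.00211), called with every library left out. HD exceeded naive after anti-NK1.1 by 1.77 ± 0.28 (adjusted p = 1.89e-04), and by 2.44 with the pool as a term (adjusted p = 0.0133). LD exceeded naive by 1.43 ± 0.31 (adjusted p = 0.00862). The excess was 1.76 with LD replicate 3 alone, within the pool, and 1.09 with LD replicate 1 alone. Each of these values rests on 1 LD library, and the call was lost without LD replicate 3. Of its exon bases, 25.6% overlap a non-coding gene on the other strand that is not in the table.

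Rab5a, Rab5b and Rab5c all act in fusion of early endosomes. Rab5a had 54.2, 43.6 and 38.0 CPM in naive unstimulated, 34.4, 26.7 and 40.9 CPM in naive anti-NK1.1, 16.5 and 17.3 CPM in HD unstimulated, 37.8, 29.98 and 29.1 CPM in HD anti-NK1.1 and 23.8 and 30.7 CPM in LD anti-NK1.1 cells. The HD unstimulated libraries stood below all others. Rab5a rose by 0.92 ± 0.25 in HD cells (adjusted p = 0.0109), with -0.42 ± 0.22 in naive cells (adjusted p = 0.175). The responses differed by 1.34 ± 0.33 (adjusted p = 0.0145, or 0.0514 without HD unstimulated replicate 1). Unstimulated HD against naive was -1.40 ± 0.25 (adjusted p = 6.18e-04), and -1.03 with the pool as a term (adjusted p = 0.181).

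Rab5c had 133, 112 and 150 CPM in naive unstimulated and 80.5, 66.1 and 88.8 CPM in naive anti-NK1.1 cells, a fall of 0.75 ± 0.24 (adjusted p = 0.0317). Its HD groups overlapped, at 78.5 and 140 CPM before and 110, 88.6 and 75.2 CPM after. Rab5b showed its one call between the stimulated groups, 72.2, 48.0 and 63.9 CPM in naive against 26.8, 29.4 and 34.6 CPM in HD cells (-1.01 ± 0.21, adjusted p = 0.00142). With the pool as a term that call was lost (-0.54, adjusted p = 0.409). The 3 forms were thus called in different comparisons. Rab5a and Rab5b transcripts share at most 35 bases in a row, and Rab5c shares at most 23 with either.

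Rab31, which carries cargo between the Golgi and endosomes, fell in naive cells from 8.63, 9.46 and 10.4 CPM to 5.97, 2.15 and 3.28 CPM (-1.42 ± 0.34, adjusted p = 0.00662). Its close relative Rab22a was not called there (0.54 ± 0.20, adjusted p = 0.0611), and was lower in HD than in naive anti-NK1.1 cells, at 42.6, 49.8 and 45.8 against 71.6, 88.4 and 76.0 CPM (-0.77 ± 0.20, adjusted p = 0.00762). With the pool as a term the latter was -0.94 and not called (adjusted p = 0.168). Rab17, Rab21 and Rab24 were called in no comparison. For Rab24, 62.4% of exon bases overlap Prelid1 on the other strand.

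**Figure D4:**
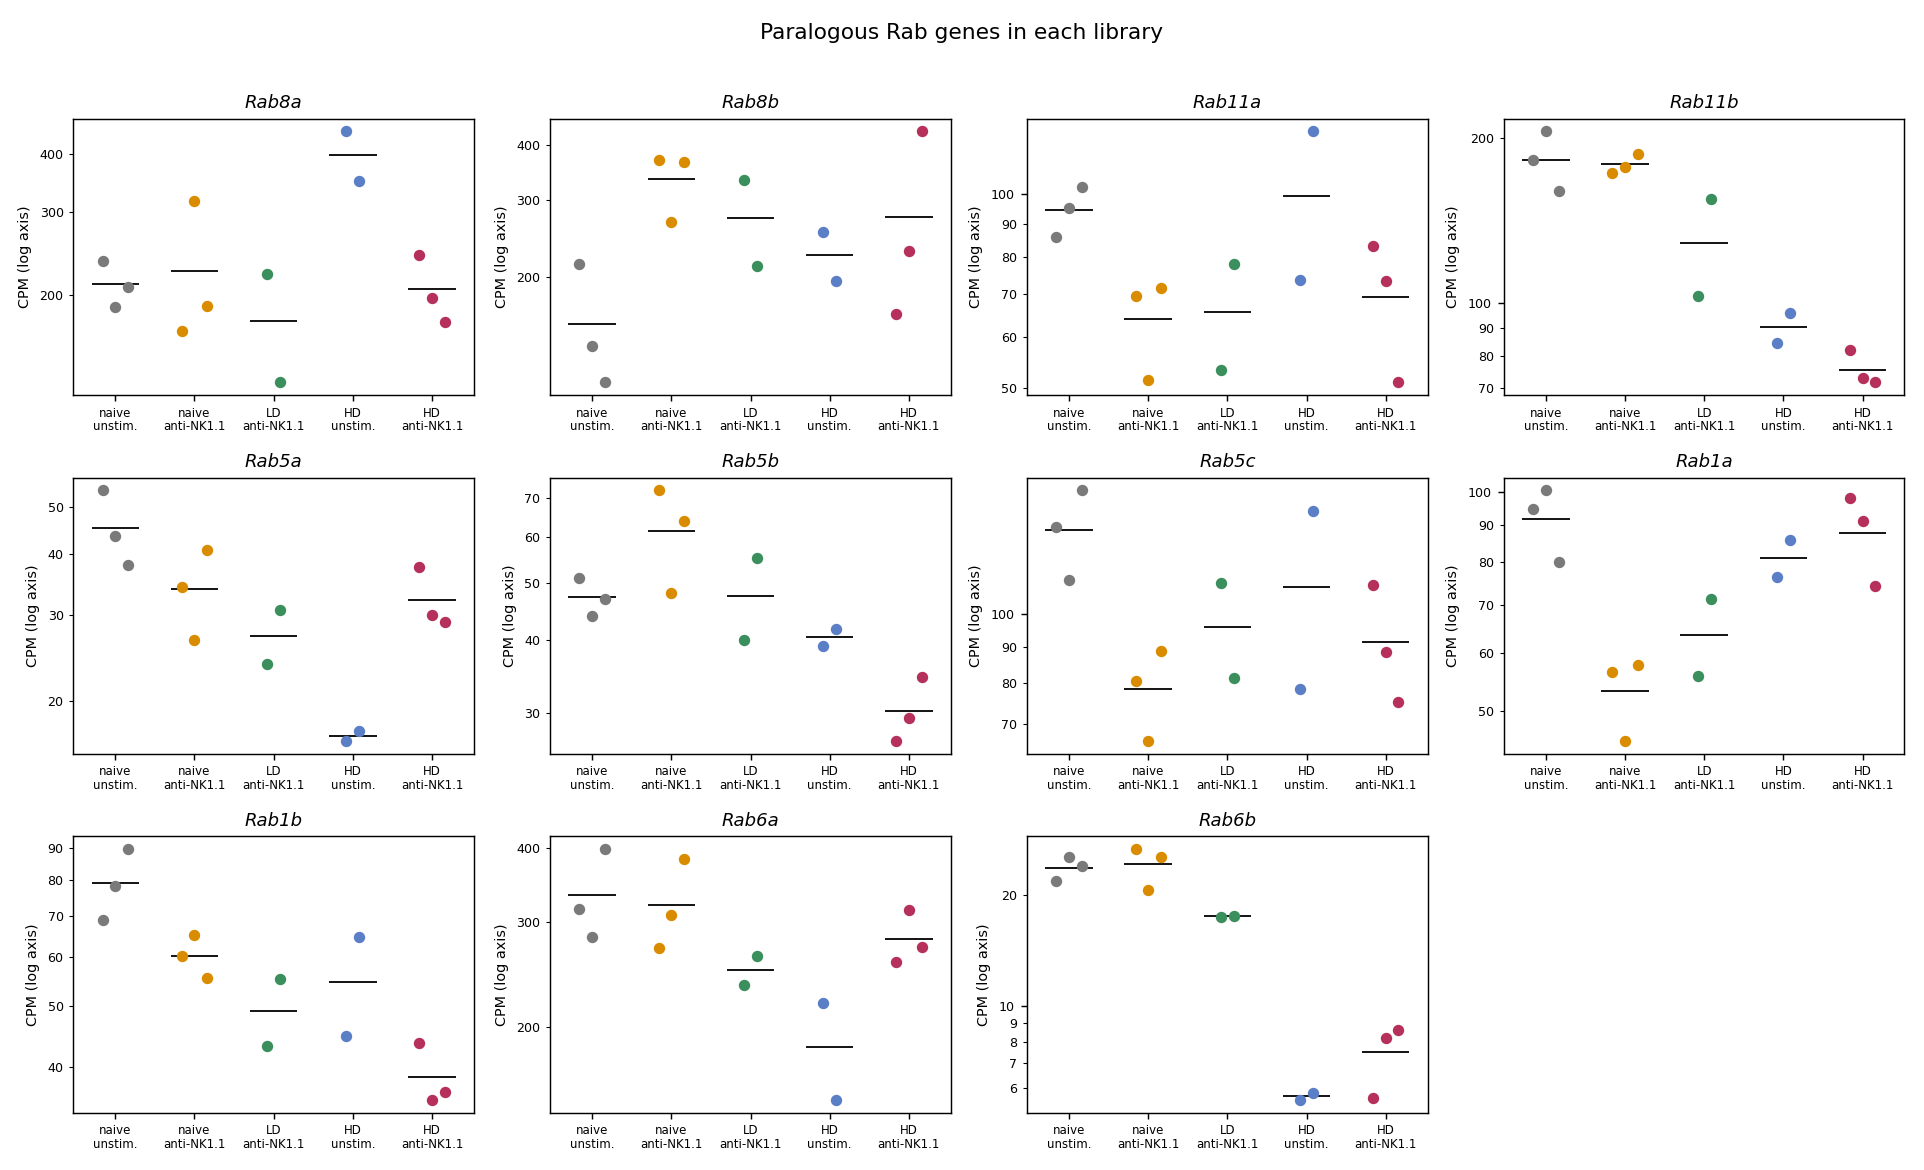
CPM (log axis) of 11 Rab genes from 5 families of paralogs in each library, with a bar at the group mean. Rab5a is lowest in HD unstimulated cells, Rab6b is low in all 5 HD libraries, and Rab11b is lower in HD than in naive cells, while Rab11a overlaps.

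In the recycling and plasma membrane group, all 12 genes were tested. The summed level was 1357 ± 49.4 CPM in naive unstimulated and 1702 ± 69.2 CPM in naive anti-NK1.1 cells (n = 3 each), 1435 ± 130 CPM in HD unstimulated (n = 2) and 1328 ± 65.4 CPM in HD anti-NK1.1 cells (n = 3). The naive libraries did not overlap. Of the 12, 1 rose and 1 fell in naive cells, and 1 rose and 2 fell in HD cells (16.7% and 25%, against 29.2% and 33.1% of all genes).

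Rab4a, the Rab of fast recycling from early endosomes, had 16.2, 24.4 and 19.2 CPM in naive unstimulated and 6.38, 3.18 and 5.87 CPM in naive anti-NK1.1 cells. It had 2.46 and 3.30 CPM in LD anti-NK1.1, 1.57 and 1.82 CPM in HD unstimulated and 4.40, 1.73 and 0.577 CPM in HD anti-NK1.1 cells. The naive unstimulated libraries stood far above all others. It fell by 1.98 ± 0.53 in naive cells (adjusted p = 0.0125), and the HD change was -0.02 ± 0.59. The difference of responses, 1.96 ± 0.80, was not called (adjusted p = 0.117). Unstimulated HD against naive was -3.48 ± 0.59 (adjusted p = 4.62e-04), and -3.07 with the pool as a term (adjusted p = 0.117). After anti-NK1.1 it was -1.52 ± 0.53 (adjusted p = 0.0314), with 1 HD library inside the naive range, and the call was lost without HD anti-NK1.1 replicate 3 (adjusted p = 0.153). Rab4b had at most 1.30 CPM in a library and no call; 65.0% of its exon bases lie in a read-through gene on the same strand.

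Rab8a and Rab8b carry cargo from the Golgi and recycling endosomes to the plasma membrane. Rab8b rose in naive cells, from 214, 139 and 115 to 370, 267 and 365 CPM (1.13 ± 0.33, adjusted p = 0.0184), and its HD libraries overlapped, at 254 and 196 CPM before and 165, 230 and 429 CPM after. Rab8a overlapped in naive cells, at 237, 188 and 208 CPM before and 167, 318 and 190 CPM after. It fell in HD cells from 447 and 350 CPM to 244, 197 and 175 CPM (-0.96 ± 0.29, adjusted p = 0.0213). The forms were thus each called in 1 cell kind. The differences of responses were not called for Rab8a (-1.0 ± 0.39, adjusted p = 0.105) or Rab8b (-0.95 ± 0.49, adjusted p = 0.217). Unstimulated HD cells held more Rab8a than naive ones (0.91 ± 0.29, adjusted p = 0.0268), a call lost without HD unstimulated replicate 1 (adjusted p = 0.190).

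Rab11a and Rab11b mark the recycling endosome, from which granules also draw membrane. Rab11b had 182, 206 and 160 CPM in naive unstimulated, 173, 177 and 187 CPM in naive anti-NK1.1, 103 and 154 CPM in LD anti-NK1.1, 84.5 and 96.1 CPM in HD unstimulated and 82.0, 73.0 and 71.7 CPM in HD anti-NK1.1 cells. All 5 HD libraries lay below all the others. HD against naive was -1.01 ± 0.21 unstimulated (adjusted p = 0.00196) and -1.24 ± 0.19 after anti-NK1.1 (adjusted p = 1.22e-04). With the pool as a term it was -0.43 (adjusted p = 0.478) and -0.66 (adjusted p = 0.217). HD against LD was -0.74 ± 0.21 (adjusted p = 0.0398), and -0.45 within the pool (adjusted p = 0.359). Rab11a was called in none of the comparisons, with 51.4 to 103 CPM in the 6 naive libraries and 50.9 to 125 CPM in the 5 HD libraries.

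Rab15, an endosomal Rab best known from neurons, had no read in the 6 naive libraries and the 2 HD unstimulated ones. It had 0.510, 0.845 and 0.822 CPM in HD anti-NK1.1 cells, 23 reads in all, and 0.0932 and 0.402 CPM in LD anti-NK1.1 cells. It was at least 1.59-fold higher after anti-NK1.1 in HD cells (adjusted p = 0.0119) and at least 4.20-fold higher there than in naive anti-NK1.1 cells (adjusted p = 0.00265). Rab15 passed the filter on low values only through HD anti-NK1.1 libraries, so these p-values are no independent support for a high level there. The latter call was lost with the pool as a term (adjusted p = 0.0501). Rab35, a Rab of endocytic recycling, fell in HD cells from 54.2 and 70.1 CPM to 37.0, 37.7 and 37.0 CPM (-0.73 ± 0.19, adjusted p = 0.0104). Rab10 had 281, 345 and 403 CPM in naive unstimulated against 234 and 213 CPM in HD unstimulated cells (-0.60 ± 0.21, adjusted p = 0.0399), and 445, 472 and 370 against 293, 328 and 251 CPM after anti-NK1.1 (-0.56 ± 0.19, adjusted p = 0.0268). Both Rab10 calls were lost with 1 HD library left out, the former without HD unstimulated replicate 2 (adjusted p = 0.170) and the latter without HD anti-NK1.1 replicate 3 (adjusted p = 0.0959). Rab12, Rab13 and Rab14 were called in no comparison.

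In the late endosome and lysosome group, limma called none of the 6 genes in naive cells after anti-NK1.1, nor had any an unadjusted p under 0.05, and 2 fell in HD cells (33.3%, against 33.1% of all genes). Rab9, which returns receptors from late endosomes to the Golgi, had 19.6, 18.6 and 14.6 CPM in naive unstimulated and 18.3, 19.97 and 15.5 CPM in naive anti-NK1.1 cells, against 33.8 and 28.8 CPM in HD unstimulated and 16.9, 11.01 and 13.3 CPM in HD anti-NK1.1 cells. The 2 HD unstimulated libraries thus stood above all others. Rab9 fell by 1.20 ± 0.26 in HD cells (adjusted p = 0.00277), and the responses differed by -1.23 ± 0.35 (adjusted p = 0.0288, or 0.105 without HD unstimulated replicate 1). Rab29, which recruits the kinase LRRK2 to lysosomes, fell in HD cells from 19.99 and 26.1 CPM to 7.17, 8.01 and 8.18 CPM (-1.55 ± 0.35, adjusted p = 0.00396).

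Rab7, the central Rab of late endosomes and lysosomes, had 116, 140 and 155 CPM in naive unstimulated and 70.9 and 96.7 CPM in HD unstimulated cells (-0.71 ± 0.24, adjusted p = 0.0305), a call lost without HD unstimulated replicate 1 (adjusted p = 0.257). Its other comparisons were not called. Rab32 was called in no comparison, with 3.11 to 10.4 CPM over the 13 libraries, unlike its partner Rab38. Rab7b, scarce at no more than 1.55 CPM, was not called.

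The group of cilium, atypical and Rab-like genes held 6 tested members, and limma called none in either response. At an unadjusted p under 0.05 there were 1 in naive cells (Rab40c) and 3 in HD cells (Rab23, Rabl3 and Rabl6), all higher. Rabl2, which acts in cilium assembly, was higher in HD than in naive anti-NK1.1 cells, at 8.50, 8.01 and 10.8 against 5.78, 2.54 and 2.74 CPM (1.38 ± 0.34, adjusted p = 0.00530), and the pool term ended that call (adjusted p = 0.135). Rab23, a negative regulator of Hedgehog signalling, Rab28, Rab40c, Rabl3 and Rabl6 were called in no comparison. Rabl6 was the most abundant of the 6, with 86.6 to 172 CPM over the libraries.

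The responses of HD and naive cells to anti-NK1.1 were set against each other in a test of their difference, which was called for 7 of the 50 Rab genes (14%, 3 above 0 and 4 below), where 15.2% of all genes were called (7.22% above 0, 8.01% below). Rab20, Rab5a and Rab1a had the higher response in HD cells, and Rab39b, Rab27b, Rab19 and Rab9 the lower one. For Rab20 and Rab5a a rise was called in HD cells and no change in naive cells; for Rab19 and Rab9 a fall was called in HD cells alone; for Rab27b both responses were called falls. With each of the 11 libraries left out, Rab20, Rab27b, Rab19 and Rab39b were called every time. The value for Rab39b (-2.06 ± 0.49, adjusted p = 0.0109) rests on the naive libraries without a read and depends on the offset of the log scale. With 8 in place of 1 added before the logarithm, a setting chosen after the data were seen, it was 0.12 (adjusted p = 0.863).

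**Figure D5:**
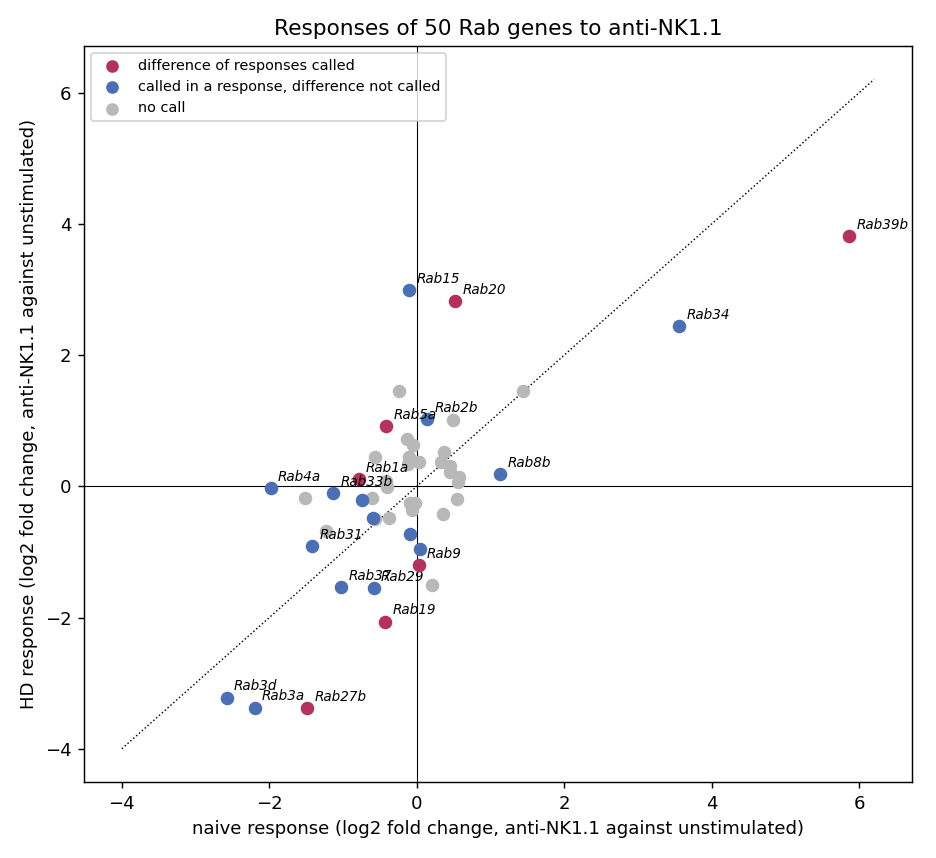
Response to anti-NK1.1 in naive cells (horizontal axis) and HD cells (vertical axis) for the 50 tested Rab genes, as log2 fold changes, 1 point per gene, with a dotted line where both are equal. Rab27b, Rab19 and Rab9 lie below the line and Rab20, Rab5a and Rab1a above it among the genes whose difference was called.

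The genes that run the Rab cycle were described by list. Their contrasts of HD with naive cells run across the pools and were not checked gene by gene with the pool as a term. Of 32 tested Rab GEFs, 5 rose and 1 fell in naive cells after anti-NK1.1, and 5 rose and 4 fell in HD cells, with list medians of 0.14 in both, against 0.01 and -0.01 for all genes. Dennd5a, a GEF reported for Rab39 proteins, rose by 2.40 ± 0.28 in HD cells (adjusted p = 2.02e-05), and the responses differed by 2.50 ± 0.37 (adjusted p = 5.07e-04). In unstimulated cells it was lower in HD than in naive (-1.99 ± 0.28, adjusted p = 8.53e-05). After anti-NK1.1, 1 GEF was higher and 8 lower in HD than in naive cells (28.1% of the 32, where 43.5% of all genes were called), among them Madd, the GEF of Rab3 and Rab27 proteins (-1.41 ± 0.23, adjusted p = 2.49e-04). Madd was also lower in LD than in naive cells (-1.15 ± 0.26, adjusted p = 0.00971).

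Of 32 tested GAPs, 7 rose and 2 fell in naive cells, and 2 rose and 2 fell in HD cells. After anti-NK1.1, 1 was higher and 11 lower in HD than in naive cells (37.5%, where 43.5% of all genes were called), with a list median of -0.59. Tbc1d4, the GAP that insulin signalling inhibits to release GLUT4 vesicles, was lower in HD cells by -3.90 ± 0.31 (adjusted p = 3.30e-07) and in LD cells by -3.06 ± 0.34 (adjusted p = 7.03e-05), and it rose by 1.32 ± 0.31 in naive cells with anti-NK1.1 (adjusted p = 0.00535). Usp6nl, a GAP of Rab5, was lower in HD cells by -3.16 ± 0.34 (adjusted p = 7.13e-06) and below LD by -2.10 ± 0.38 (adjusted p = 0.00321). Tbc1d17 rose by 1.23 ± 0.20 in naive cells (adjusted p = 3.68e-04), and its response in HD cells was lower by -1.39 ± 0.29 (adjusted p = 0.00555).

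Of the 8 genes of Rab prenylation and extraction, 1 rose in naive cells, and 2 rose and 2 fell in HD cells. In HD cells Rabggtb, the catalytic subunit of the enzyme that adds the lipid tail, rose by 0.96 ± 0.25 (adjusted p = 0.00861), and Gdi2 fell by 0.74 ± 0.20 (adjusted p = 0.0127). Of 37 tested effectors, 3 rose and 5 fell in naive cells, and 4 rose and 3 fell in HD cells. Unc13d, the Munc13-4 protein that primes lytic granules for fusion, fell by 1.49 ± 0.29 in naive cells (adjusted p = 0.00147), and Sytl3, a Rab27 effector, fell by 1.70 ± 0.29 (adjusted p = 6.68e-04). The response of Sytl3 was higher in HD than in naive cells by 2.02 ± 0.44 (adjusted p = 0.00664). Sytl1, another Rab27 effector, fell by 1.79 ± 0.44 in HD cells (adjusted p = 0.00663). Of the 17 tethers of the HOPS, CORVET and exocyst complexes, 2 rose and 3 fell in naive cells, and 2 rose and 2 fell in HD cells. Exoc2, an exocyst subunit, rose in both, by 1.46 ± 0.18 (adjusted p = 4.87e-05) and 1.34 ± 0.20 (adjusted p = 1.97e-04). The shares of these 5 lists called in the responses ran from 12.5% to 50%, against 29.2% and 33.1% of all genes.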

How the data were processed

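RNA of 13 samples of NK cells was sequenced. Messenger RNA was captured, samples were pooled once the first strand had been made, and the libraries keep strand, per the labels' protocols. The build was mm10 per the submitters' processing notes; the aligner, counter and annotation are not given in the sources used here. The deposited values are log2 of quantile-normalized counts with 1 added, by the authors, a unit read from the values (0 to 17.92) although the table is named as counts. Log2 values were planned for with limma, which was used.

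One model with 5 groups was fitted with limma 3.58.1 (R 4.3.3; variance trend, empirical Bayes, 8 residual and 6.3 prior degrees of freedom), two-sided, over 11543 genes whose linear value reached 10 or more in 2 or more libraries (446 removed). The 7 comparisons were Benjamini-Hochberg adjusted over all genes tested. The fit was tested on simulated data. Reads were recovered only up to 400 per gene and library. Alternatives were no filter, a filter at 50, other scaling, no trend, compared groups alone, the pool or replicate number as a term, each library left out and, added after the data were seen, an offset of 8. Positions and overlaps came from GENCODE vM21 (same build), figures from matplotlib 3.10.9.

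The members, role groups and lists were chosen with earlier results of these data known. Values in every library are given for the 5 called members per comparison with the largest change and no overlap, and for paralogs whose calls differ; of each list, at most 4 called members per comparison could be named, by smallest p. Some samples' labels give the 6 h of stimulation without the antibody (naive anti-NK1.1 replicates 1 and 4), and their titles gave the group.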

Additional observations from a re-analysis of the deposited data

Results flagged for a closer look

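The responses of HD and naive cells to anti-NK1.1 differed for 7 Rab genes by limma's test of the difference itself, adjusted over all genes. The HD response minus the naive response was 2.30 on the log2 scale for Rab20, 1.34 for Rab5a and 0.90 for Rab1a. It was -1.23 for Rab9, -1.63 for Rab19, -1.89 for Rab27b and -2.06 for Rab39b. The Rab39b value rests on naive libraries without a read, and with an offset of 8 it was 0.12 (adjusted p = 0.863). Rab1a stayed called in only 2 of the 11 fits with 1 library left out. Both responses were measured within 1 library pool each, so the kind of cell and the pool cannot be told apart in how the responses differ. No group held 4 or more libraries, so no test for an outlying library was made.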

How the results depend on the processing

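Of the 80 called pairs of a Rab gene and a comparison, all 80 kept direction and call with no filter and with median-ratio scaling, 72 with the compared groups alone and 72 without the variance trend; all 71 that a filter at 50 left in the test kept theirs. With an offset of 8, 79 kept theirs and 1 reversed, the difference of responses of Rab39b (0.12), whose naive unstimulated value is 0 reads. Median-ratio scaling could change little, since the values were already quantile-normalized and its size factors ran from 0.974 to 1.039. With the library pool as a factor 43 of the 80 stayed called. The pool term cannot change the log2 fold changes of the 2 responses and of their difference, which cancel the pool. There 13 of 13 calls in naive cells, 14 of 15 in HD cells and 7 of 7 for the difference stayed. With the pool as a factor, Rab (all) genes called were 2 (1006) for HD against naive unstimulated and 5 (1107) for HD against naive anti-NK1.1. They were 1 (658) for LD against naive and 1 (444) for HD against LD. The compared groups alone gave 3 Rab genes for HD against LD.

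With 1 library left out, where a lone library is assumed to vary like the other groups, Rab (all) genes called were 9 to 13 (2699 to 2849) for the naive response, 10 to 13 (2502 to 3322) for the HD response, 11 to 19 (2399 to 3543) for HD against naive unstimulated, 16 to 18 (4149 to 4510) for HD against naive anti-NK1.1, 0 to 3 (659 to 1278) for LD against naive, 1 to 3 (444 to 668) for HD against LD and 4 to 7 (1196 to 1617) for the difference of responses. Of the 80 pairs, 44 were called in every such fit that tested them. They include Rab15 for HD against naive anti-NK1.1, which passed the filter in 4 of the 6 fits.

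Same-numbered libraries deviated from their group means with correlations from -0.143 to 0.0905. In groups of 2 or 3 libraries the deviations constrain each other, so these correlations cannot show whether the numbers pair the libraries. With the replicate number as a block, Rab (all) genes called were 6 (1864) for the naive response, 7 (2042) and 8 (2296) for HD against naive unstimulated and anti-NK1.1, 0 (225) for LD against naive, 1 (577) for HD against LD and 3 (856) for the difference of responses; for the HD response they were 11 (3084). Groups of 2 or 3 libraries and few reads limit Rab3a, Rab15, Rab34, Rab38, Rab43 and Rab44 most, and a missed threshold does not show that levels are equal.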
